A study of Mus musculus with 8 samples.

Results

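CC chemokines were followed in neutrophils that inflammation had recruited in Arf6 conditional knockout mice and in control mice. Arf6 is a small GTPase of membrane traffic. The set comprised 9 genes (Ccl2, Ccl3, Ccl4, Ccl5, Ccl6, Ccl7, Ccl9, Ccl17 and Ccl22) and took every probe set whose only gene symbol was one of these names. Each gene had 1 such probe set, so 9 probe sets represented the 9 genes, out of 23521 probe sets and 22180 genes that carried a single symbol. All 9 read above the level that served as the filter on dim probe sets (5.45, log2, the median of all values) in all 8 arrays, and all 9 were tested.

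The RNA came from leucocytes that lipopolysaccharide (LPS) had drawn into an air pouch under the skin, each array holding cells pooled from 5 mice and enriched for neutrophils by negative selection, after which 98% carried Ly6G per the design text. The Arf6 conditional knockout (cKO, flox+/+Cre+/+) had 3 arrays, the flox control (flox+/+Cre-/-) had 3 and the Cre control (flox-/-Cre+/+) had 2. All 3 groups received LPS, and no pouch without LPS was analysed here, so the values show levels during inflammation and not an induction. The labels and design text do not name the promoter that drives Cre, the strain, the age of the mice or the time after LPS. The design text speaks of independent groups of mice, so p-values measure the spread between pools, and a further Cre control pool was not analysed here.

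CC chemokines are small secreted proteins that guide leucocytes through G protein-coupled receptors of the CCR family. Activated neutrophils make several of them, in particular Ccl3 and Ccl4, and so help to call monocytes, dendritic cells and T cells to a site after their own arrival. Transcription of many of the genes is driven by NF-kB after LPS is sensed, and that of some also by interferon signals. Most of the mouse genes lie together on chromosome 11, and Ccl17 and Ccl22 lie close together on another chromosome, with Cx3cl1 between them.

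No CC chemokine passed the test in the cKO. With limma and Benjamini-Hochberg adjustment over 14002 probe sets, 0 of 9 members passed against both controls, against the flox control or against the Cre control, and 0 of 9 passed between the control groups. The shares of all probe sets called in these comparisons were 0.00714%, 0.0429%, 0.0714% and 0.486%. At an unadjusted p under 0.05 the counts were 0, 1, 2 and 3 of 9, where 9.52%, 8.26%, 13.5% and 14.7% of all probe sets reached that level. Against both controls 4 members were higher and 5 lower (53.4% and 46.6% of all probe sets), with a median log2 fold change of 0.00. Against the flox control 7 were higher and 2 lower (52.4% and 47.6% of all probe sets), with a median of 0.13. Against the Cre control 1 was higher and 8 lower (52.0% and 48.0%), with a median of -0.14. The median over all probe sets was 0.01 in each of these comparisons. The cKO overlapped both controls, and the flox control alone, in all 9 members, where 4.36% and 12.2% of all probe sets did not overlap. The members differed in how far the pools of 1 group spread, with a standard deviation within groups from 0.06 for Ccl3 to 0.93 for Ccl7, against a median of 0.18 over all probe sets tested.

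**Figure D1:**
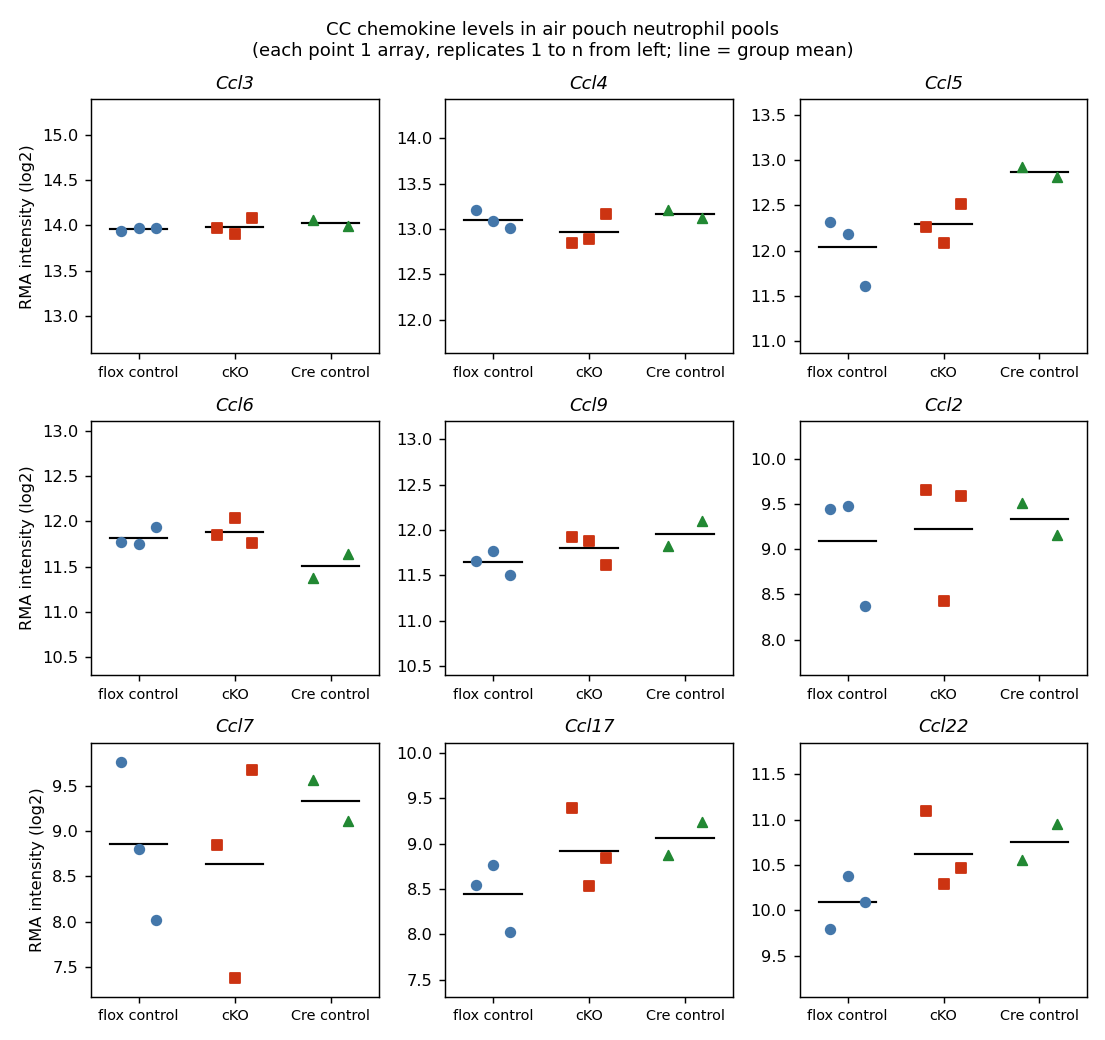
Level of each CC chemokine (RMA intensity, log2) in each array, by group, with the group mean as a line; every panel spans the same number of log2 units. Ccl3 stayed between 13.90 and 14.08, while Ccl7 ran from 7.38 to 9.76 and the groups overlapped in both; Ccl5 in the Cre control lay above every other array.

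The labels were checked with Arf6, and the levels of neutrophil markers were read. Arf6 (probe set 17275925) averaged 6.25 ± 0.22 (SD, n = 3) in the cKO, 8.02 ± 0.30 (SD, n = 3) in the flox control and 7.82 ± 0.05 (SD, n = 2) in the Cre control (adjusted p = 0.0122 against both controls by limma), and every cKO array lay below every control array. A dimmer Arf6 probe set (17281565) had group means of 6.29 (cKO), 6.55 (flox control) and 6.33 (Cre control), with overlap (log2 -0.15 against both controls, SE 0.15, adjusted p = 0.816). All 9 neutrophil markers, among them Ly6g, S100a8 and Csf3r, read above the filter level in every array. Their list mean was 12.83 to 12.93 in the cKO, 12.96 to 13.01 in the flox control and 12.79 to 12.80 in the Cre control. All 12 macrophage and monocyte markers also read above the filter level in every array, so passing it does not identify the cell type. A pair of arrays, flox control replicate 3 and cKO replicate 2, stood apart in several CC chemokines. In the sex-linked transcripts Xist and Eif2s3y, flox control replicate 1 and cKO replicate 1 stood apart in opposite directions. Xist read 5.46 in flox control replicate 1, 10.21 in cKO replicate 1 and 7.84 to 9.39 elsewhere. Eif2s3y read 9.89, 4.08 and 8.66 to 10.04 in the same order.

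The inflammatory and myeloid chemokines Ccl3, Ccl4, Ccl5, Ccl6 and Ccl9, most of them ligands of CCR1, a receptor that mouse neutrophils and monocytes carry, were read in 5 probe sets. Ccl3 (MIP-1alpha, gene identifier 20302, chromosome 11, probe set 17266967) read 13.97, 13.90 and 14.08 in the cKO, 13.94, 13.97 and 13.97 in the flox control and 14.06 and 13.99 in the Cre control. The cKO arrays spanned those of all controls. The difference against both controls was -0.01 (log2, SE 0.09, 95% interval -0.22 to 0.20, adjusted p = 0.988 by limma). The highest reading of any probe set was 14.10 to 14.17 per array, so Ccl3 was read next to the top of the scale. The part of that ceiling in its small spread and narrow interval was not tested.

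Ccl4 (MIP-1beta, gene identifier 20303, chromosome 11, probe set 17254283), an attractant of monocytes and T cells whose gene neighbours Ccl3, read 12.85, 12.89 and 13.17 in the cKO, 13.21, 13.09 and 13.01 in the flox control and 13.21 and 13.12 in the Cre control. In the cKO 2 arrays lay below all 5 controls, and the remaining one was among them. The difference against both controls was -0.17 (log2, SE 0.11, 95% interval -0.42 to 0.09, adjusted p = 0.708 by limma). It kept its sign in every alternative, between -0.10 and -0.27 when single arrays were left out.

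Ccl5 (RANTES, gene identifier 20304, chromosome 11, probe set 17266946), which binds CCR1 and CCR3 among others and is also made in quantity by T and NK cells, read 12.26, 12.09 and 12.52 in the cKO. It read 12.32, 12.18 and 11.61 in the flox control and 12.93 and 12.81 in the Cre control. The Cre control arrays were the highest of all, the cKO overlapped the flox control, and flox control replicate 3 was the lowest. The cKO differed from the Cre control by -0.58 (log2, SE 0.21, 95% interval -1.06 to -0.11, adjusted p = 0.279 by limma) and from the flox control by 0.25 (SE 0.19, adjusted p = 0.768), a value that dropped to 0.04 when flox control replicate 3 was left out and to 0.14 when cKO replicate 3 was. The Cre control exceeded the flox control by 0.83 (SE 0.21, 95% interval 0.36 to 1.31, unadjusted p = 0.003, adjusted p = 0.114 by limma), a 1.78-fold higher reading in the Cre control. This difference had the smallest p of any member in the 4 comparisons. It passed in 1 setting alone, with array weights (adjusted p = 0.0267), and the adjusted p ran from 0.0267 to 0.547 over the alternatives.

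Ccl6 and Ccl9, CCR1 ligands of the mouse that myeloid cells also make without stimulation, varied about as much as the median probe set (SD over the arrays 0.20 and 0.19, median 0.19). Ccl6 (gene identifier 20305, probe set 17266960) read 11.85, 12.04 and 11.76 in the cKO, 11.77, 11.75 and 11.94 in the flox control and 11.37 and 11.64 in the Cre control. Ccl9 (gene identifier 20308, probe set 17266952) read 11.92, 11.88 and 11.61 in the cKO, 11.66, 11.77 and 11.50 in the flox control and 11.82 and 12.10 in the Cre control. The pair went in opposite directions in the Cre control, where Ccl6 was below and Ccl9 above all arrays of the flox control. Against the Cre control the cKO was higher in Ccl6 by 0.38 (log2, SE 0.14, 95% interval 0.06 to 0.70, adjusted p = 0.293 by limma), with no overlap between the groups. Ccl6 and Ccl5 were the 2 of 9 members whose cKO and Cre control arrays did not overlap, where 34.4% of all probe sets did not. For Ccl9 the cKO differed from both controls by 0.00 (log2, SE 0.12, 95% interval -0.28 to 0.27).

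The ligands of CCR2, the receptor that brings inflammatory monocytes out of the bone marrow and into tissue, spread the most. Ccl2 (MCP-1, gene identifier 20296, chromosome 11, probe set 17254041) read 9.65, 8.43 and 9.59 in the cKO, 9.44, 9.47 and 8.37 in the flox control and 9.51 and 9.16 in the Cre control. Ccl7 (MCP-3, gene identifier 20306, chromosome 11, probe set 17254047), its neighbour on the chromosome, read 8.85, 7.38 and 9.67 in the cKO, 9.76, 8.80 and 8.02 in the flox control and 9.56 and 9.11 in the Cre control. Both genes were lowest in the same 2 arrays, cKO replicate 2 and flox control replicate 3, which belong to different groups. Within groups the standard deviation was 0.60 for Ccl2 and 0.93 for Ccl7, the latter above that of 99.9% of all probe sets tested.

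The cKO differed from both controls by 0.01 in Ccl2 (log2, SE 0.33, 95% interval -0.73 to 0.74, adjusted p = 0.997 by limma) and by -0.47 in Ccl7 (SE 0.50, 95% interval -1.58 to 0.65, adjusted p = 0.832). These intervals were the widest of the 9 members, and for Ccl7 they leave room for a change of more than 2-fold. The sign of the Ccl7 difference turned without cKO replicate 2 (0.16). Without both cKO replicate 2 and flox control replicate 3, an omission chosen after seeing the data, Ccl2 differed by 0.22 (adjusted p = 0.846) and Ccl7 by -0.05 (adjusted p = 0.987). A further CCR2 ligand of the mouse, Ccl12 (MCP-5, probe set 17254059), showed the same low arrays, at 5.30 in cKO replicate 2 and 5.68 in flox control replicate 3, against 6.13 to 6.85 elsewhere.

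**Figure D2:**
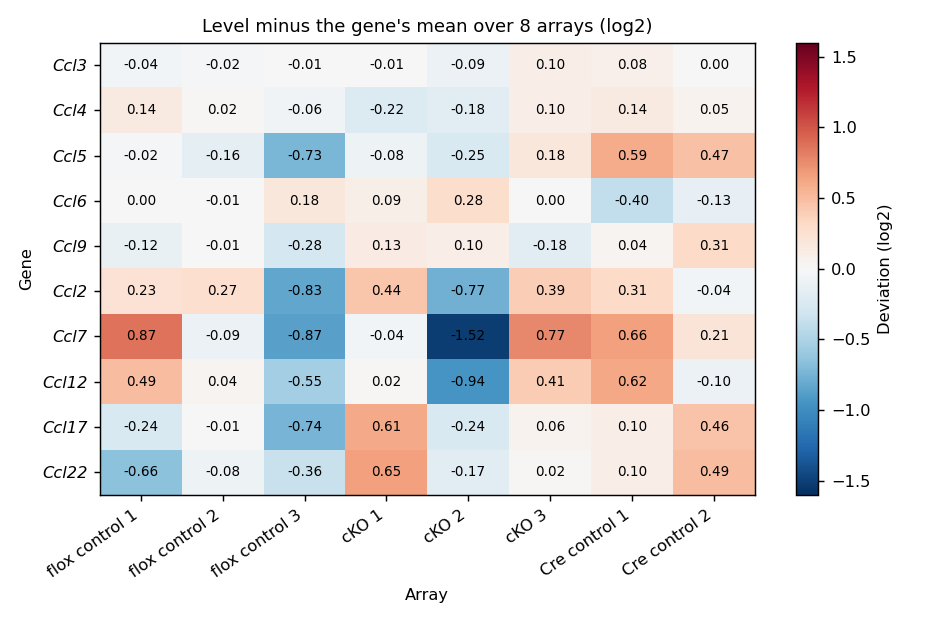
Deviation of each CC chemokine, and of Ccl12, from its own mean over the 8 arrays (log2, red higher and blue lower), with arrays in columns. Ccl2, Ccl7 and Ccl12 are lowest in flox control 3 and cKO 2 (Ccl7 at -0.87 and -1.52), and the Cre control columns hold the highest Ccl5 deviations (0.59 and 0.47).

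The 2 low arrays were also low in the mean of the macrophage and monocyte markers, but not in every marker or every marker list. The 12 macrophage and monocyte markers, all measured and all above the filter level in every array, had their lowest list means in flox control replicate 3 (8.37) and cKO replicate 2 (8.48), against 8.62 to 8.93 in the other arrays. Single markers differed. In cKO replicate 2 Fcgr1 (10.83), Siglec1 (5.91) and Ly6c2 (12.21) were the lowest of the 8 arrays. Its Csf1r (10.48) and Cx3cr1 (7.05) were the next to highest. In flox control replicate 3 C1qa (7.00), C1qb (7.99), C1qc (5.70), Ccr2 (7.89) and Mertk (5.89) were the lowest. Its Adgre1 (10.53) was the next to highest. The 6 fibroblast markers, of which Lum and Pdgfra stayed below the filter level, averaged 6.02 and 5.86 in these arrays, and 5.72 in Cre control replicate 1, where Ccl2 and Ccl7 were not low. In cKO replicate 2 the dendritic cell list had its highest mean of the 8 arrays (7.94), and its T and NK cell list (6.43) lay above that of every flox control array. By group the macrophage list ran from 8.48 to 8.77 in the cKO, 8.37 to 8.78 in the flox control and 8.92 to 8.93 in the Cre control, and the fibroblast list from 5.86 to 6.86, 6.02 to 6.83 and 5.72 to 6.73. Their part in the Ccl2 and Ccl7 values was not tested. In pooled cells, fewer cells of a type and less RNA per cell cannot be told apart.

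The genes whose mean-centred levels lay nearest to those of Ccl7 and Ccl2, the 2 members with the highest standard deviation, were found by the root-mean-square difference over the 8 arrays. For Ccl7 they were Clec4a1 and Psmb10 (both at a difference of 0.28 log2), Il27 (0.29), Gbp4 (0.30) and Ly6i (0.30). For Ccl2 they were Tmem106a (0.21), Slc28a2, Sting1 and Ptpro (0.22 each) and Atp13a1 (0.23). For scale, Ccl7 itself had a standard deviation of 0.84 over the arrays and Ccl2 one of 0.52. Ptpro was dim, at 5.15 to 6.10, and fell below the filter level in flox control replicate 3 (5.32) and cKO replicate 2 (5.15).

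The CCR4 ligands Ccl17 (TARC) and Ccl22 (MDC) are best known from dendritic cells and macrophages as attractants of regulatory and type-2 helper T cells. They had the highest correlation of all member pairs over the 8 arrays, though not for the deviations from the group means. Their promoters are shown because the genes lie close together on chromosome 8 and their levels ran in parallel. The 250 bases before the listed start of each gene, taken from RefSeq (GRCm38.p6, plus strand, 5′ to 3′), are chr8:94810203-94810452 for Ccl17 and chr8:94745434-94745683 for Ccl22. Capitals mark the match to a STAT6 motif (TTC and GAA with 4 bases of any kind between them, which reads the same on both strands).
Ccl17: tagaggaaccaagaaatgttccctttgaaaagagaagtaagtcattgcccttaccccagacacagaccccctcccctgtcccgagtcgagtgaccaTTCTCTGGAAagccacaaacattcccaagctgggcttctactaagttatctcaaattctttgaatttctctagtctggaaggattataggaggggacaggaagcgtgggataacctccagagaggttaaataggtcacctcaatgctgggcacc
Ccl22: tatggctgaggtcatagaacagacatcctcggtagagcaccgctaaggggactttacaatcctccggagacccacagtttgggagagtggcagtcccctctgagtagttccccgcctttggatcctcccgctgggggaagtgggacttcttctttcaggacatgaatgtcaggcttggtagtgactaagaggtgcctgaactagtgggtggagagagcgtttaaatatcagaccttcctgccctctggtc

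The motif searches were made on both strands of these windows and of 32851 RefSeq promoters of the same length. The STAT6 motif was found in Ccl17, 154 to 145 bases before the start, and in 5.85% of all promoters, and Ccl22 had no match. Neither window held the NF-kB consensus (7.25% of all promoters), an AP-1 motif (TGANTCA, 6.75%) or an ISRE core (GAAA repeated after 2 bases of any kind, 2.98%). A PU.1 core (GAGGAA, 23.3%) was found in Ccl17. Of the 9 members 5 had a promoter in the table, and among these the NF-kB consensus was matched in Ccl9 alone, by the complement of GGAAAGCCCC as the window is written 5′ to 3′, 35 to 26 bases before the start. The members with no entry were Ccl2, Ccl4, Ccl5 and Ccl7.

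Ccl17 (gene identifier 20295, probe set 17504138) read 9.39, 8.53 and 8.84 in the cKO, 8.54, 8.77 and 8.03 in the flox control and 8.88 and 9.24 in the Cre control. Ccl22 (gene identifier 20299, probe set 17504122) read 11.10, 10.29 and 10.47 in the cKO, 9.79, 10.38 and 10.09 in the flox control and 10.56 and 10.95 in the Cre control. For both genes cKO replicate 1 was the highest array and Cre control replicate 2 the next, and the flox control held the lowest. The cKO overlapped both control groups.

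Against the flox control, Ccl22 in the cKO was higher by 0.53 (log2, SE 0.23, 95% interval 0.02 to 1.04, adjusted p = 0.59 by limma), a 1.45-fold higher reading, and Ccl17 by 0.47 (SE 0.24, 95% interval -0.07 to 1.02, adjusted p = 0.664). Without cKO replicate 1 these differences were 0.29 for Ccl22 and 0.24 for Ccl17, and without flox control replicate 3 that of Ccl17 was 0.27. Against the Cre control the differences were -0.13 (SE 0.25) for Ccl22 and -0.14 (SE 0.27) for Ccl17. The Cre control itself read 0.66 above the flox control in Ccl22 (SE 0.25, unadjusted p = 0.0267, adjusted p = 0.267) and 0.61 above it in Ccl17 (SE 0.27, unadjusted p = 0.0484, adjusted p = 0.334), with no overlap between these groups for either gene. The 3 comparisons share arrays, so their values are given side by side only. Without flox control replicate 1 and cKO replicate 1 the difference against both controls turned from 0.20 to -0.11 for Ccl22 and from 0.17 to -0.04 for Ccl17, and those against the flox control were 0.14 and 0.29.

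The dendritic cell list and the T and NK cell list had their lowest group means in the flox control, as did Ccl17, Ccl22 and Ccl5. This was not particular to these members, since Ccl2 (9.09), Ccl3 (13.96) and Ccl9 (11.65) also averaged lowest in the flox control. Of 12 dendritic cell markers 10 were measured, with Clec10a below the filter level in all arrays, and their mean ran from 7.49 to 7.78 in the flox control, 7.76 to 7.94 in the cKO and stood at 7.89 in both Cre control arrays. Of 10 T and NK cell markers 9 were measured, with Cd4 below the filter level in all arrays, and their mean ran from 6.05 to 6.37 in the flox control, 6.43 to 6.59 in the cKO and 6.67 to 6.88 in the Cre control, without overlap. Single markers went the other way, with Cd3d averaging 6.12 for the flox control, 5.89 for the cKO and 5.64 for the Cre control, and the brighter probe set of Cd209a 10.13, 9.95 and 9.67. The dendritic cell list overlapped between the flox control and the cKO. The macrophage and monocyte list was highest in the Cre control as given above. The neutrophil list ran the other way, highest in the flox control and lowest in the Cre control, without overlap among the 3 groups. In the Cre control 8 of 9 neutrophil markers were lower than in the flox control, where 50.8% of all probe sets were. These control groups did not overlap in 6 of the 9, where 32.7% of all probe sets did not. All 5 eosinophil markers were measured, with Epx below the filter level, and ran from 6.33 to 6.70 in the flox control, 6.59 to 7.18 in the cKO and 6.66 to 7.31 in the Cre control. The part of such cells in the values of any member was not tested.

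**Figure D3:**
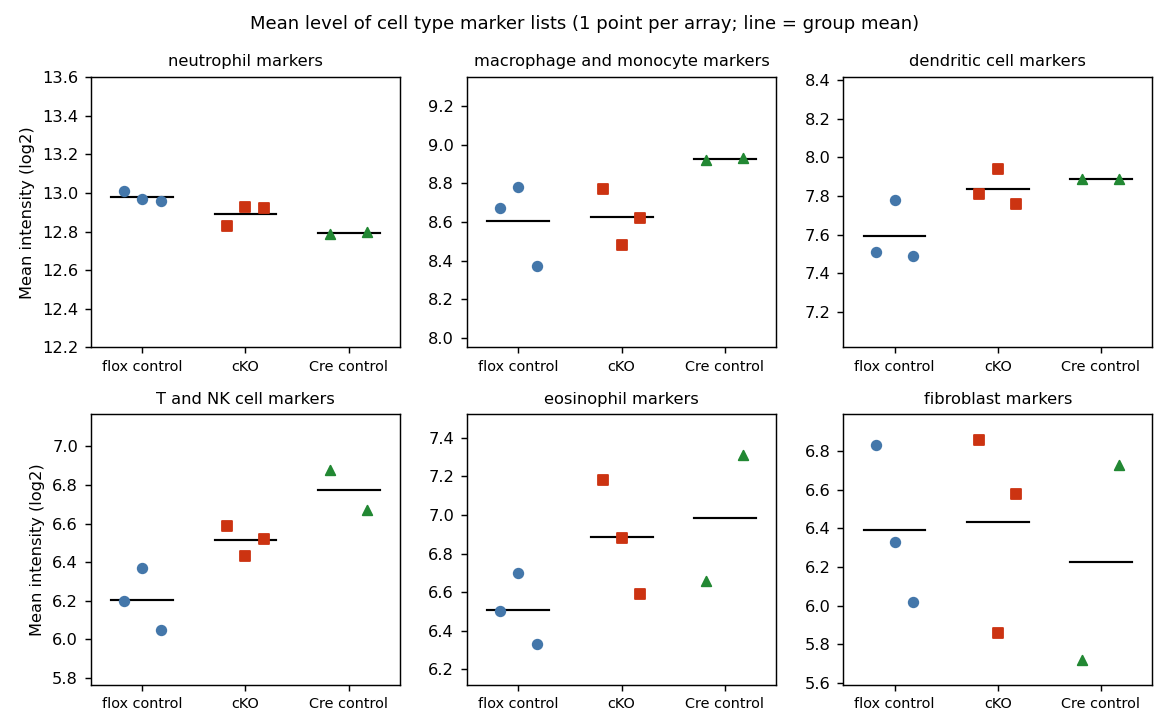
Mean level (log2) of the measured genes of 6 cell type marker lists in each array, by group, with the group mean as a line. The T and NK cell list rises from the flox control (6.05 to 6.37) to the Cre control (6.67 to 6.88), and the macrophage list is lowest in flox control 3 (8.37) and cKO 2 (8.48).

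Which members varied together over the pools was described with 36 pairwise correlations over the 8 arrays. Ccl17 and Ccl22 had the highest, with Pearson's r = 0.87 (exact permutation p = 0.00702, 0.192 adjusted over 36 pairs) and Spearman's rho = 0.93 (exact permutation p = 0.00223, 0.0804 adjusted). It was 0.91 without the 2 arrays farthest from the median of Ccl17, and 0.76 for the deviations from the group means. Ccl2 and Ccl7 correlated at r = 0.84 (exact permutation p = 0.0177, 0.192 adjusted; rho = 0.50, exact permutation p = 0.216, 0.41 adjusted). That relation rested on the 2 low arrays, since r fell to 0.05 without them, while it was 0.88 for the deviations from the group means. Ccl4 and Ccl7 correlated at r = 0.78 (exact permutation p = 0.0242, 0.192 adjusted) and rho = 0.83 (exact permutation p = 0.0154, 0.185 adjusted), with 0.98 without the 2 arrays farthest in Ccl4 and 0.79 for the deviations. Ccl5 and Ccl6 ran in opposite directions, with r = -0.83 (exact permutation p = 0.0126, 0.192 adjusted), rho = -0.83 (exact permutation p = 0.0154, 0.185 adjusted), r = -0.79 without the 2 farthest arrays and -0.77 for the deviations from the group means. None of the 36 pairs passed after adjustment, and 8 had an unadjusted exact permutation p under 0.05 for r.

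**Figure D4:**
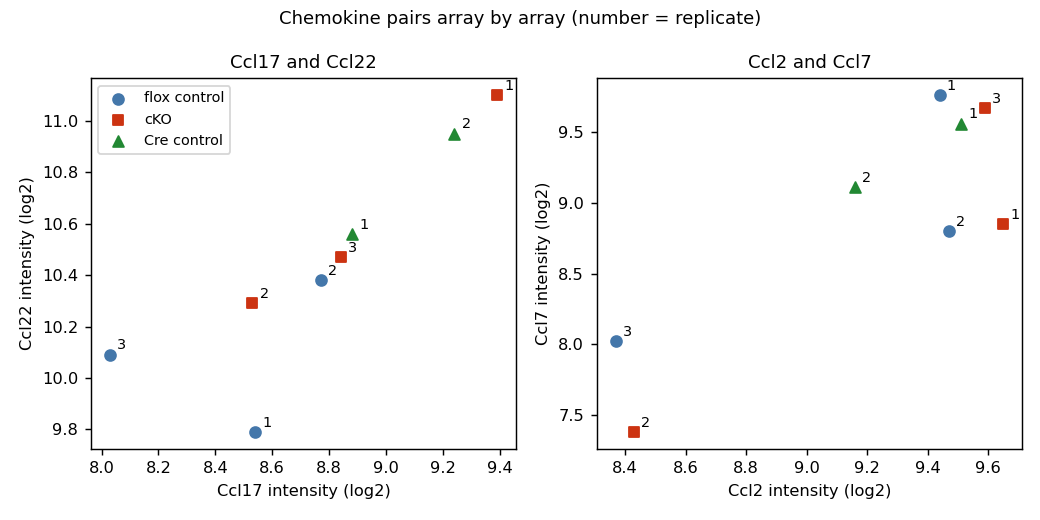
Ccl22 against Ccl17 (left) and Ccl7 against Ccl2 (right), both axes in log2 intensity, 1 point per array with its replicate number. In the left panel the arrays form a band from flox control 1 and 3 up to cKO 1 (9.39 and 11.10), and in the right panel flox control 3 and cKO 2 lie apart from the other 6.

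Between the control groups 8 of 9 members were higher in the Cre control and 1 was lower, with a median log2 fold change of 0.31, where 49.2% of all probe sets were higher, 50.8% lower and the median was 0.00. In 6 members (Ccl3, Ccl5, Ccl6, Ccl9, Ccl17 and Ccl22) the control groups did not overlap, where 32.7% of all probe sets did not. For Ccl3 the gap was small, the difference being 0.07 (log2, SE 0.12, adjusted p = 0.848 by limma). The cKO lay between the control groups in its mean for 6 members: Ccl2 (9.22), Ccl3 (13.98), Ccl5 (12.29), Ccl9 (11.80), Ccl17 (8.92) and Ccl22 (10.62). For Ccl4 and Ccl7 the cKO mean was the lowest of the 3 groups (12.97 and 8.63) and for Ccl6 it was the highest (11.88).

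**Figure D5:**
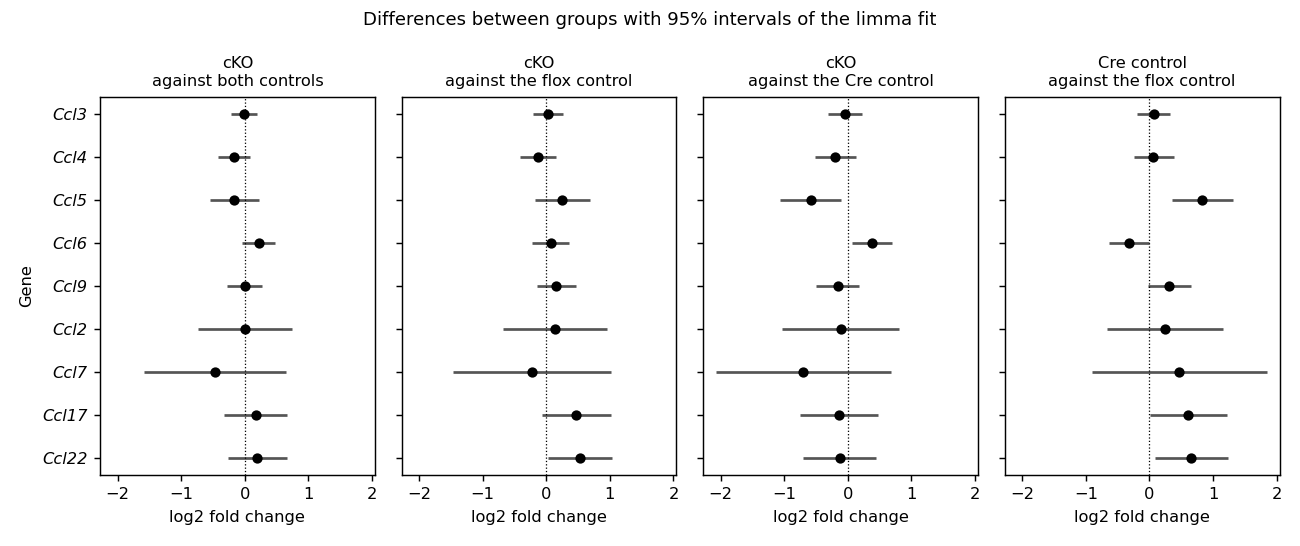
Log2 fold change of each CC chemokine in the 4 comparisons (point) with its 95% interval from the limma fit (line); the dotted line marks no difference. Intervals are widest for Ccl7 (-1.58 to 0.65 against both controls) and narrowest for Ccl3 (-0.22 to 0.20), and the interval of Ccl5 lies above 0 between the controls (0.36 to 1.31).

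Of the receptors, Ccr1, through which neutrophils themselves respond to Ccl3, Ccl5, Ccl6 and Ccl9, read 12.71, 12.78 and 12.79 in the cKO, 12.67, 12.68 and 12.65 in the flox control and 12.49 and 12.75 in the Cre control. All 3 cKO arrays lay above the flox control, by 0.09 on average (log2, SE 0.11, adjusted p = 0.874 by limma), while they overlapped the Cre control. Between the cKO and the flox control 12.2% of all probe sets did not overlap. Ccrl2, an atypical receptor that presents chemerin and is induced in activated neutrophils, read 12.93, 12.98 and 13.06 in the cKO and 13.07 to 13.26 in the controls. The groups did not overlap, which held for 4.36% of all probe sets, but the difference was -0.18 (log2, SE 0.10, adjusted p = 0.608 by limma) and the nearest arrays read 13.06 and 13.07. Ccr2, the receptor of Ccl2 and Ccl7, differed from both controls by 0.06 (SE 0.19). Ccr4, the receptor of Ccl17 and Ccl22, stayed below the filter level in all 8 arrays. Of 14 receptor genes 13 were measured and 6 tested, of which 4 were higher and 2 lower against both controls (53.4% and 46.6% of all probe sets), with a median of 0.09. None passed the threshold, and the unadjusted limma p was under 0.05 for 0 of them and for 9.52% of all probe sets. Ccr7, the receptor by which dendritic cells leave tissue for lymph nodes, had the smallest p of the receptors between the controls, with 9.58 and 10.10 in the Cre control and 8.31, 9.43 and 8.78 in the flox control (log2 1.00, SE 0.29, adjusted p = 0.153 by limma).

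Among other CC ligands, 10 of 13 genes had a probe set of their own and 7 were tested. Against both controls 1 was higher and 6 were lower (53.4% and 46.6% of all probe sets), with a median of -0.05, 0 past the threshold and 0 at an unadjusted p under 0.05 by limma (9.52% of all probe sets). Ccl24, an eosinophil attractant, read 7.73, 7.29 and 7.69 in the cKO, 7.74, 7.81 and 7.48 in the flox control and 8.03 and 7.92 in the Cre control. It was lower in the cKO than in the Cre control, without overlap, by -0.40 (log2, SE 0.17, adjusted p = 0.332 by limma). In that comparison 34.4% of all probe sets did not overlap. Ccl1, Ccl8 and Ccl26 stayed below the filter level in all arrays.

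No regulator of the LPS response or of chemokine messages passed the test. Of 32 genes 26 were measured and all of these were tested. Against both controls 17 were lower and 9 higher, with a median of -0.09, 0 past the threshold and 8 at an unadjusted p under 0.05 by limma. At that level lay 9.52% of all probe sets, and 46.6% of all were lower. In 6 of the 26 the cKO did not overlap the controls, where 4.36% of all probe sets did not. Tnip3, which binds the NF-kB inhibitor A20, had the smallest p of the list and read 10.27, 9.79 and 10.80 in the cKO, 11.14, 11.07 and 10.92 in the flox control and 11.64 and 11.36 in the Cre control. The cKO lay below every control array, with a difference of -0.99 (log2, SE 0.20, adjusted p = 0.245 by limma) against both controls, -0.76 against the flox control and -1.21 against the Cre control. Tnfaip3, which encodes A20, also lay below every control array, by -0.43 against both controls (SE 0.10, adjusted p = 0.319 by limma), -0.44 against the flox control and -0.42 against the Cre control. Relb, an NF-kB subunit, differed by -0.57 from the flox control (SE 0.13, adjusted p = 0.348 by limma) and by -0.39 from the Cre control (adjusted p = 0.303), with no overlap. Zc3h12a, an RNase that degrades inflammatory messages, differed by -0.71 (SE 0.17, adjusted p = 0.348) and -0.43 (adjusted p = 0.372), also with no overlap. The NF-kB subunit gene Nfkb2 differed by -0.53 from the flox control (SE 0.14, adjusted p = 0.355), and by -0.27 from the Cre control, which it overlapped (adjusted p = 0.49). Other regulators were higher in the cKO. Ikbkg was higher by 0.52 against both controls (SE 0.17, adjusted p = 0.398 by limma). It was higher by 0.48 against the flox control, with overlap, and by 0.57 against the Cre control, without overlap. Irf3 was higher by 0.34 than in the Cre control, without overlap (SE 0.12, adjusted p = 0.279 by limma), and differed by -0.10 from the flox control. Between the cKO and the Cre control 34.4% of all probe sets did not overlap, and between the control groups 32.7% did not. Between the controls Irf8 and Irf4, transcription factors of dendritic cells and macrophages, read 0.88 (SE 0.21, adjusted p = 0.106) and 0.95 (SE 0.31, adjusted p = 0.199) higher in the Cre control by limma, without overlap with the flox control.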

How the data were processed

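The deposited values are log2 probe set intensities of Affymetrix Mouse Gene 2.0 ST arrays, which the authors background-subtracted and normalized by Robust Multiarray Analysis (RMA) in Expression Console, per the series' design text. Neither the software version nor the build of the probe set annotation is stated there, and the labels name other extraction and labelling kits than the design text. Array medians ran from 5.41 to 5.48, and no scaling was added. Groups follow the genotype labels, since the source field of each sample names another genotype. Symbols were updated by gene identifier with RefSeq (GRCm38.p6), which matched 23328 of 23521 single-symbol probe sets.

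Probe sets above 5.45 in at least 2 arrays (14002) entered 1 limma fit of 3 groups (version 3.58.1, R 4.3.3; 5 residual and 4.69 prior degrees of freedom), tested two-sided with Benjamini-Hochberg adjustment over all of them and a threshold of 0.05. SE and intervals are those of this fit. Lists used 1 probe set a gene, the brightest. The fit was also run on simulated data with known shifts and independent noise. Those data lack deviations that genes share within an array, as Ccl2 and Ccl7 did here, so the run does not bear on them. The alternatives were other filters, scalings, variance models, array weights, fits of the compared groups alone, an exact permutation test and omitted arrays.

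All member probe sets were named. Of the receptors and the other lists, those of the members' own ligands and up to 4 genes with the smallest p in a comparison were eligible. Genes like Ccl7 and Ccl2 were taken from the tested probe sets without predicted, microRNA and small nucleolar RNA genes. The members and lists were chosen with earlier results of these data known. Precision is limited by how few arrays each group has.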

Additional observations from a re-analysis of the deposited data

How the results depend on the processing

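Over the alternatives the count of CC chemokines past the threshold stayed at 0 in all 4 comparisons, leave-one-out included (0 to 0), except that with array weights it was 1 between the controls (Ccl5, log2 fold change 0.76, adjusted p = 0.0267 by limma). Of the 36 differences (9 genes in 4 comparisons) 21 kept their sign in every setting run. None of the 36 had passed in the main fit, whether its sign turned or not. The cause of each turn was not tested.

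Against both controls quantile normalization gave -0.01 for Ccl2 and 0.05 for Ccl9, and median centring 0.02 for Ccl9 and 0.01 for Ccl3. The difference of plain means over 5 controls was 0.03 for Ccl9, and the exact permutation p over the 56 splits ran from 0.161 to 0.982 over the members. With array weights Ccl2 was 0.02 against the Cre control. Without both pools with distinct sex-linked transcripts Ccl2 was -0.12, Ccl22 -0.11 and Ccl17 -0.04 against both controls, and Ccl7 was 0.11 against the flox control. Without flox control replicate 3 and cKO replicate 2 together, chosen after seeing the data, Ccl3 was 0.04 against both controls. In that setting Ccl2 was 0.28, Ccl3 0.00, Ccl22 0.04 and Ccl17 0.05 against the Cre control, and Ccl2 was -0.12 between the controls.

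With 1 array left out, values against both controls ran from -0.20 to 0.40 for Ccl2 (lower without flox control replicate 3, cKO replicate 1 or 3, or Cre control replicate 2), -0.98 to 0.16 for Ccl7 (higher without cKO replicate 2), -0.07 to 0.10 for Ccl9, -0.06 to 0.03 for Ccl3, -0.04 to 0.37 for Ccl22 and -0.07 to 0.36 for Ccl17, the last 2 turning without cKO replicate 1. Against the flox control they ran from -0.23 to 0.53 for Ccl2, -0.75 to 0.40 for Ccl7, -0.01 to 0.13 for Ccl6 and -0.03 to 0.07 for Ccl3. Against the Cre control they ran from -0.33 to 0.28 for Ccl2, -0.09 to 0.00 for Ccl3, -0.37 to 0.06 for Ccl22 and -0.37 to 0.05 for Ccl17, and between the controls from -0.12 to 0.44 for Ccl2.

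The counts over all probe sets depended more on the setting: 1 against both controls (0 to 31, the latter without cKO replicate 3), 6 against the flox control (0 to 12), 10 against the Cre control (0 to 145) and 68 between the controls (0 to 819), the last 2 highest with array weights. No paired analysis was possible because the labels give the groups no shared replicate numbers.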

Other observations

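CC chemokines whose genes have near-identical copies on the mouse genome share probe sets and were read as families. The 13 probe sets of Ccl19 and its copies read 5.09 to 7.16 (log2, median 5.72), and averaged 5.94 over cKO arrays, 5.90 over flox control arrays and 6.07 over Cre control arrays. The 9 probe sets of the Ccl21 copies, lymph node chemokines that bind CCR7 like Ccl19, read 6.03 to 6.63 and averaged 6.30, 6.32 and 6.22 in the same order. The 11 probe sets of the Ccl27 copies read 4.55 to 6.92 and averaged 5.81, 5.89 and 5.91. These counts leave out the probe sets of Ccl27a alone, which belong to the other CC ligands above. The family probe sets carry several gene symbols, were not tested, and cannot be assigned to single genes.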
